A study of Rattus norvegicus with 6 samples.

Results

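The expression of 46 lysosomal genes was examined in rat sciatic nerve after crush injury. The genes were chosen by name, from a list of cathepsins and other hydrolases of the lysosome, lysosomal membrane proteins, subunits of its proton pump and the transcription factors Tfeb and Tfe3, with earlier results of these data known. All 46 were found among the 30957 mRNAs of the gene table, and all 46 were among the 15195 that were abundant enough to be tested. Atp6v0d2 was so only through the injured libraries, and its rise is among the counts below. The study sequenced RNA of the sciatic nerve of Sprague-Dawley rats, 1 month old, in 3 groups of 2 rats, with 1 library, a or b, from each rat. The control group is called normal control in the sample labels, while the study's methods describe an operation without the clamp. The other groups were sampled 4 days (D4) and 7 days (D7) after the sciatic nerve crush. Apart from chloral hydrate anesthesia, stated for the crushed rats, the methods describe no drug treatment and no transgene. Every rat was of the same stock. The libraries held 18727255 to 25350886 fragment counts on mRNAs. Since whole nerve tissue was sequenced, a change in the number of cells of a type and a change in the RNA per cell cannot be told apart in any of the values that follow.

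Lysosomes are acidic compartments in which proteases, glycosidases, sulfatases and lipid hydrolases degrade material taken up from outside the cell or delivered by autophagy. The vacuolar proton pump, a V1 sector in the cytosol joined to a V0 sector in the membrane, acidifies the lumen, and heavily glycosylated proteins such as LAMP1 and LAMP2 line the membrane. After a nerve is crushed, axons and myelin distal to the lesion break down, and Schwann cells and macrophages that enter the nerve clear the debris through their lysosomes. TFEB and TFE3, basic helix-loop-helix factors of the MiT/TFE family, activate many lysosomal genes through E-box elements, and their activity is controlled largely by their movement into the nucleus.

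The E-box elements were looked for in the promoters because TFEB and TFE3 are themselves among the 46 genes. RefSeq promoter windows of the GRCr8 build, from 250 bases before to 50 bases after the annotated start, were matched by symbol for 36 of the 46 genes. No window was matched for Ctsb, Arsa, Arsb, Hexa, Asah1, Ppt1, Psap, Atp6v0d2, Atp6v1b2 and Atp6v1h. The 6-base E-box CACGTG, which reads the same on both strands, was present in 9 of the 36 windows (25.0%) and in 6.42% of all 33469 windows of the same length. The longer element GTCACGTG, of the kind described for lysosomal genes, contains the E-box and was present on either strand in 8 of the 36 windows (22.2%) and in 1.85% of all windows. These 8 were Ctsd, Gaa, Glb1, Galc, Cln3, Lamp1, Mcoln1 and Atp6v0d1, and Ctsf held the 6-base element alone. The motif GAGGAAGT, a core bound by the myeloid factor PU.1, was present on either strand in 3 of the 36 windows (8.33%), those of Ctsc, Ctss and Gla, and in 2.42% of all windows. A match is a run of letters and no evidence that a factor was bound.

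The sequences of 5 promoters are given, as the 250 bases before the annotated start read 5′ to 3′ along the gene's own strand. Lamp1 and Ctsd are shown because they held the most and several E-boxes, Galc and Atp6v0d1 because they share the longer element while their RNAs differed in response, and Ctss because it had the highest fitted fold change at D4 among the members detected in every library and held no E-box. Capitals mark CACGTG in the first 4 sequences, and in Ctss they mark the PU.1-type motif, which lies on the opposite strand.
Lamp1 promoter, chr16:83075064-83075313, minus strand: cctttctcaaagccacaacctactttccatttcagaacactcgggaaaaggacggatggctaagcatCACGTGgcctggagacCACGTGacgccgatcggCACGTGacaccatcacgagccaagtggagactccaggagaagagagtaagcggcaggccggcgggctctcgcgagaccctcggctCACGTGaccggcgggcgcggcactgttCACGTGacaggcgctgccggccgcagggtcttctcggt
Ctsd promoter, chr1:206968822-206969071, minus strand: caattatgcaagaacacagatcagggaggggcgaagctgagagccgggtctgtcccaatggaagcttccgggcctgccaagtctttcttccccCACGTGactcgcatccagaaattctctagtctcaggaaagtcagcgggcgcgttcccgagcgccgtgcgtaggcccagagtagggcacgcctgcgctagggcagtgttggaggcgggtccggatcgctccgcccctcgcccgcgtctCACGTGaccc
Galc promoter, chr6:123245560-123245809, minus strand: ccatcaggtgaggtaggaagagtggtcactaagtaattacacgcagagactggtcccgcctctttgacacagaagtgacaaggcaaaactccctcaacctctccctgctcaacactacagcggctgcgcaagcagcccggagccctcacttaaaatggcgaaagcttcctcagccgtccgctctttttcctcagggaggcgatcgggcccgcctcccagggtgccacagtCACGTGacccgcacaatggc
Atp6v0d1 promoter, chr19:50357249-50357498, minus strand: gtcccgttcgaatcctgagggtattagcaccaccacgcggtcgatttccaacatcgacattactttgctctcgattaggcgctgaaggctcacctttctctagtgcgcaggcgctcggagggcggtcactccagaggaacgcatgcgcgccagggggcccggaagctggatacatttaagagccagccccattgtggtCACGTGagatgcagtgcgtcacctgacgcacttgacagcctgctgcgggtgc
Ctss promoter, chr2:185775146-185775395, plus strand: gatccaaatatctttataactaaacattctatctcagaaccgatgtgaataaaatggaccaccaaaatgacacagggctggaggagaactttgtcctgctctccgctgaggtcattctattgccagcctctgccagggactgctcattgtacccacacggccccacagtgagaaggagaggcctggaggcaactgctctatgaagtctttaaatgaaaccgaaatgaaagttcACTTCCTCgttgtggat

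Lamp1 held 5 E-boxes, of which the farthest began 183 bases before the start. Ctsd held 2, beginning 157 and 10 bases before the start. In all, 13 of the 16 E-boxes of the 9 genes lay within the longer element, and 15 of the 16 began within 200 bases before the start. The remaining match, in Mcoln1, began at base 5 after the start.

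**Figure D1:**
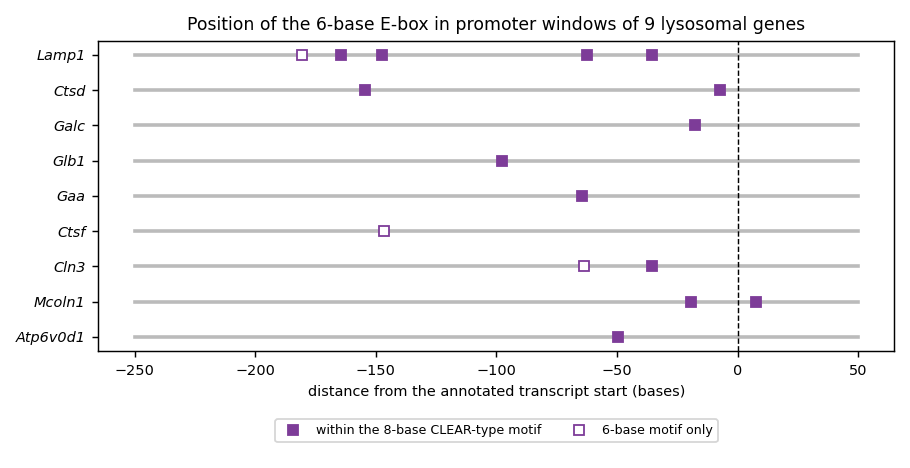
Position of the E-box in the promoter windows of the 9 genes that held it, as distance from the annotated transcript start in bases (grey bar: the window). Filled squares are matches within the 8-base element and open squares are matches to the 6 bases alone, and most of the 16 squares lie within 200 bases before the start.

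The first comparison asked which of these genes differed between the injured nerve on D4 and the control nerve. Levels are given as TMM-CPM, the count of a gene relative to the total of its library after scaling with TMM factors, and differences as log2 fold changes with their standard errors (SE) and p-values of edgeR adjusted over all tested mRNAs. A gene was called where its adjusted p was under 0.05, and the calls of at least 2-fold were counted separately. On D4, 29 of the 46 genes rose and 4 fell, and 13 did not pass the test. Thus 63.0% of the lysosomal genes rose and 8.70% fell, against 21.6% and 22.6% of all tested mRNAs. The rise was at least 2-fold in 15 genes (32.6%), against 11.2% of all tested mRNAs. No fall among the 46 reached 2-fold, the lowest log2 fold change being -0.74 (Arsa), against falls of at least 2-fold in 10.7% of all tested mRNAs. The median log2 fold change was 0.58 over the 46 genes and -0.04 over all tested mRNAs.

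The D7 libraries were compared with the same 2 control libraries, so the D4 and D7 values of a gene are not independent. On D7, 26 of the 46 genes rose (56.5%), 3 fell (6.52%) and 17 did not pass the test, against 19.5% and 18.1% of all tested mRNAs. Of these, 10 rose at least 2-fold (21.7%) against 9.83% of all tested mRNAs, and no log2 fold change was below -0.68, where 9.02% of all tested mRNAs fell at least 2-fold. The median log2 fold change was 0.50 over the 46 genes and 0.01 over all tested mRNAs. As a share of all mRNA counts, the 46 genes together took 0.640% and 0.613% in control a and b, 1.48% and 1.23% in D4 a and b, and 1.14% and 1.16% in D7 a and b. This share carries no TMM factor. With the factors, the summed TMM-CPM was 7417 and 6929 in control, 13845 and 11524 at D4 and 10737 and 10739 at D7. Every injured library was above both control libraries in the share and in the scaled sum. The plot of fold changes by role shows that the soluble hydrolases lay mostly to the right of 0 and the proton pump subunits around it.

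**Figure D2:**
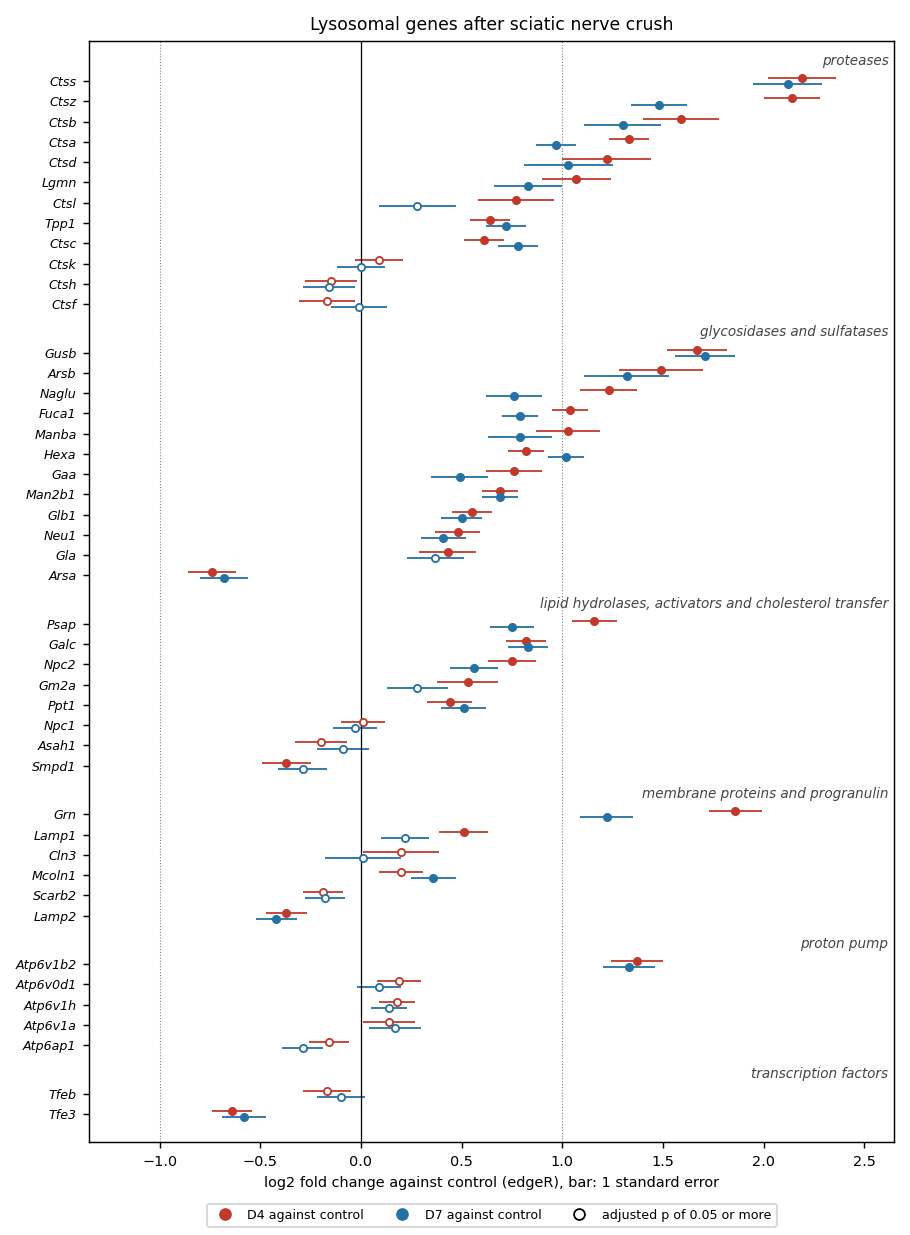
Log2 fold change of 45 of the 46 lysosomal genes on D4 (red) and D7 (blue) against control, grouped by role and ordered by the D4 value, with bars of 1 standard error from the edgeR fit (open circles: adjusted p of 0.05 or more). The 12 proteases and 12 glycosidases and sulfatases lie mostly above 0, Arsa and Tfe3 lie below it on both days, and Atp6v0d2, which had no count in the controls, is left out.

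Among the 12 proteases, 9 rose on D4 and 8 on D7, and none of the 12 fell. Of all tested mRNAs 21.6% rose and 22.6% fell on D4, and 19.5% and 18.1% on D7. These shares stand beside the counts of every role below. Ctss, which encodes cathepsin S, a cysteine protease of antigen-presenting cells (ENSRNOG00000021157, Rnor_6.0 chr2:197655786-197679458), was at 13.4 and 11.8 TMM-CPM in control, 63.6 and 51.6 at D4 and 48.9 and 60.8 at D7. All 4 injured libraries were above both controls. The log2 fold change was 2.19 (SE 0.17, adjusted p = 3.27e-04) on D4 and 2.12 (SE 0.17, adjusted p = 6.09e-04) on D7. Ctsz, encoding the carboxypeptidase cathepsin Z (ENSRNOG00000050697, chr3:172527107-172537877), was at 32.1 and 25.5 TMM-CPM in control, 133 and 121 at D4 and 76.1 and 84.5 at D7. Its D7 libraries lay between the control and the D4 libraries, with log2 fold changes of 2.14 (SE 0.14, adjusted p = 2.21e-04) and 1.48 (SE 0.14, adjusted p = 9.24e-04). Ctsd, encoding the aspartic protease cathepsin D (ENSRNOG00000020206, chr1:215541542-215553451), was at 335 and 339 TMM-CPM in control, 967 and 598 at D4 and 695 and 682 at D7. The D4 libraries of Ctsd differed 1.62-fold from each other, and even the lower of them was above both controls. Its log2 fold change was 1.22 (SE 0.22, adjusted p = 0.00643) on D4 and 1.03 (SE 0.22, adjusted p = 0.0141) on D7, and the D7 call was lost without control a (adjusted p = 0.0514) or control b (adjusted p = 0.0506).

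The other proteases that rose on both days were Ctsb, Ctsa, Lgmn (legumain, which cleaves after asparagine), Tpp1 (tripeptidyl peptidase 1) and Ctsc (which activates granule proteases), with log2 fold changes from 0.61 to 1.59 on D4. On D7 Ctsb was 2.46-fold higher than in control, and the other 4 had log2 fold changes from 0.72 to 0.97. Part of the counts of Ctsa cannot be assigned with certainty, since its 3′ neighbour Pltp overlaps it by 157 bases and was counted 1060 and 810 times in control and 7972 and 6011 times on D4. Ctsl rose on D4 (log2 fold change 0.77) and missed the threshold on D7 (0.28, adjusted p = 0.287), and its D4 call was lost without D4 a (0.45, adjusted p = 0.0699) and without either control library. The proteases Ctsf, Ctsh and Ctsk passed the test on neither day, with log2 fold changes from -0.17 to 0.09. Ctsk encodes the collagen-degrading protease for which osteoclasts are known, and it stood at 55.1 and 53.9 TMM-CPM in control and at 52.3 to 63.9 in the injured libraries.

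Among the 12 glycosidases and sulfatases, 11 rose on D4 and 10 on D7, and 1 fell on both days. Gusb, encoding β-glucuronidase (ENSRNOG00000000913, chr12:30198822-30227771), was at 21.7 and 24.8 TMM-CPM in control, 83.6 and 64.8 at D4 and 79.4 and 72.7 at D7. Every injured library was above both controls, and the D7 libraries lay between the D4 libraries. The log2 fold change was 1.67 (SE 0.15, adjusted p = 5.48e-04) on D4 and 1.71 (SE 0.15, adjusted p = 7.89e-04) on D7. The locus of Gusb overlaps Vkorc1l1 by 5071 bases, and Vkorc1l1 was counted 215 and 150 times in control, 186 and 178 times on D4 and 119 and 137 times on D7. Arsb, encoding the sulfatase that desulfates dermatan sulfate (ENSRNOG00000011150, chr2:23385183-23544963), was at 68.5 and 68.1 TMM-CPM in control, 234 and 150 at D4 and 182 and 159 at D7. Its D4 libraries differed 1.56-fold and both were above the controls, with log2 fold changes of 1.49 (SE 0.21, adjusted p = 0.00263) on D4 and 1.32 (SE 0.21, adjusted p = 0.00543) on D7.

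Arsa moved the other way. It encodes arylsulfatase A, which removes the sulfate of the myelin lipid sulfatide (ENSRNOG00000012953, chr7:130446668-130451283), and it was at 147 and 118 TMM-CPM in control, 80.7 and 78.4 at D4 and 84.5 and 80.5 at D7. All 4 injured libraries lay below both controls, and the log2 fold change was -0.74 (SE 0.12, adjusted p = 0.00500) on D4 and -0.68 (SE 0.12, adjusted p = 0.00829) on D7. Hexa, encoding the α subunit of β-hexosaminidase, rose by a log2 fold change of 0.82 on D4 and 1.02 on D7. Naglu, Fuca1 and Manba, which act on heparan sulfate, fucosylated glycans and mannosides, rose at least 2-fold on D4, with log2 fold changes from 1.03 to 1.23, and by 0.76 to 0.79 on D7. Gaa, Man2b1, Glb1 and Neu1 rose on both days with log2 fold changes from 0.41 to 0.76. The D7 calls of Gaa and Neu1 were lost without D4 a, D4 b, D7 a, D7 b or control b in turn (adjusted p from 0.0605 to 0.139), their D4 calls without D4 a (adjusted p = 0.0560 and 0.112), and that of Neu1 also without control b (adjusted p = 0.0620). Gla, encoding α-galactosidase A, rose on D4 by 0.43 (adjusted p = 0.0493), a call lost without any library but control a (adjusted p from 0.0601 to 0.187), and had 0.37 on D7 (adjusted p = 0.0853).

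**Figure D3:**
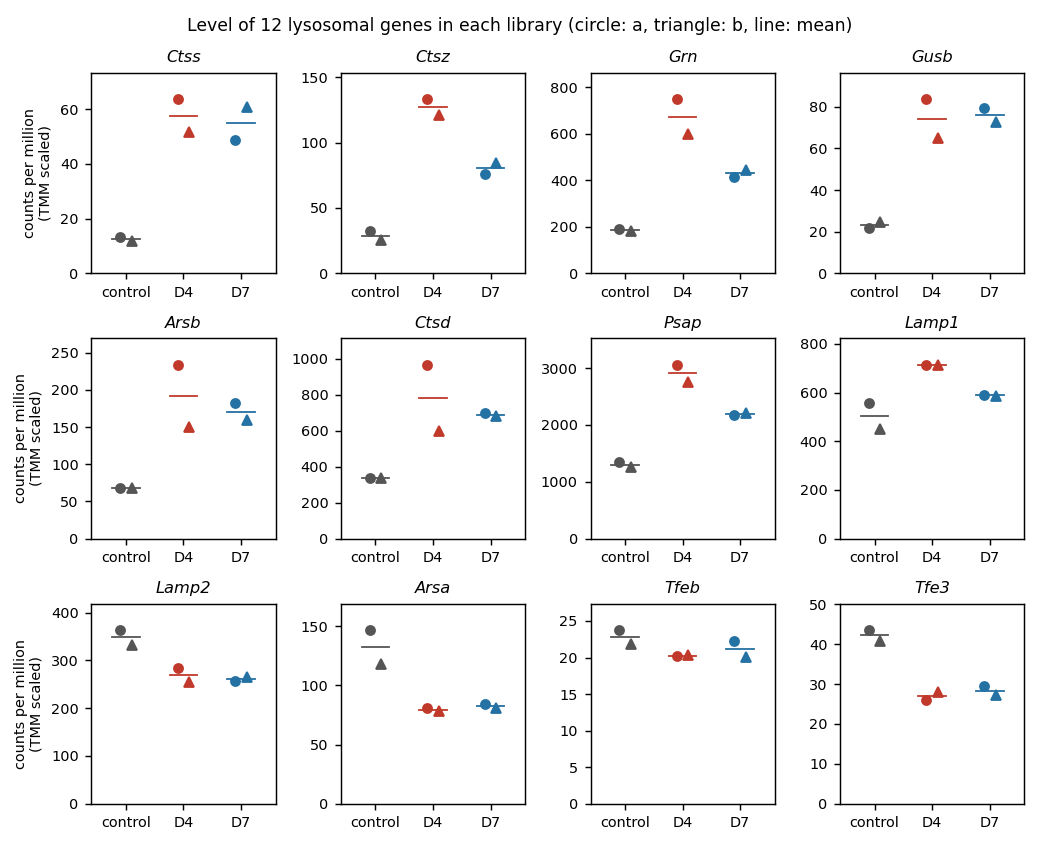
Level in TMM-CPM of 12 lysosomal genes in each of the 6 libraries (circle: library a, triangle: library b, line: group mean of 2 rats, axes from 0). Ctss, Ctsz, Grn, Gusb, Arsb, Ctsd and Psap lie higher in all 4 injured libraries than in control, Lamp2, Arsa and Tfe3 lie lower, and the D4 libraries of Ctsd and Arsb lie apart from each other.

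Of the 8 genes of lipid breakdown and cholesterol transfer, 5 rose and 1 fell on D4, and 4 rose and none of the 8 fell on D7. Psap encodes prosaposin, the precursor of the saposins that present sphingolipids to their hydrolases (ENSRNOG00000000571, chr20:29831314-29856875). It was at 1350 and 1254 TMM-CPM in control, 3064 and 2763 at D4 and 2167 and 2215 at D7. The 3 groups were separate, with D7 between control and D4, and the log2 fold change was 1.16 (SE 0.11, adjusted p = 6.23e-04) on D4 and 0.75 (SE 0.11, adjusted p = 0.00388) on D7. Galc, encoding the galactosylceramidase that degrades the main galactolipid of myelin (ENSRNOG00000003759, chr6:122178602-122239614), was at 30.9 and 26.7 TMM-CPM in control, 51.0 and 51.0 at D4 and 52.3 and 50.1 at D7. The injured libraries of Galc were nearly level with each other, and its log2 fold change was 0.82 (SE 0.10, adjusted p = 0.00173) on D4 and 0.83 (SE 0.10, adjusted p = 0.00232) on D7. Arsa and Galc, which act in turn on sulfatide and on the galactosylceramide left from it, thus had changes of opposite sign on both days.

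Smpd1, encoding acid sphingomyelinase (ENSRNOG00000017977, chr1:170383682-170387524), was at 199 and 162 TMM-CPM in control, 140 and 141 at D4 and 146 and 149 at D7. Its log2 fold change was -0.37 (SE 0.12, adjusted p = 0.0443) on D4 and -0.29 (SE 0.12, adjusted p = 0.0937) on D7. The D4 call was close to the threshold and was lost without D4 a, D4 b, D7 a, D7 b or control a in turn (adjusted p from 0.0648 to 0.178), and the log2 fold change was -0.21 without control a. Npc2, encoding a soluble cholesterol carrier, and Ppt1, encoding a depalmitoylating thioesterase, rose on both days with log2 fold changes from 0.44 to 0.75. Their D7 calls were lost without D7 a, D7 b or control b (adjusted p from 0.0506 to 0.0622), and the D4 call of Ppt1 without D4 a (0.31, adjusted p = 0.139) or control b (adjusted p = 0.0832). Gm2a, encoding the GM2 activator, rose on D4 (0.53), a call lost without D4 a (0.33, adjusted p = 0.153) or either control library, and had 0.28 on D7 (adjusted p = 0.181). Npc1, the membrane partner of NPC2, and Asah1, encoding acid ceramidase, passed the test on neither day, with log2 fold changes from -0.20 to 0.01.

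The membrane proteins differed among themselves. Grn encodes progranulin, a secreted and lysosomal glycoprotein (ENSRNOG00000021031, chr10:90376933-90383205), and was at 189 and 181 TMM-CPM in control, 748 and 598 at D4 and 416 and 444 at D7. Its log2 fold change was 1.86 (SE 0.13, adjusted p = 2.62e-04) on D4 and 1.22 (SE 0.13, adjusted p = 0.00135) on D7. Lamp1 (ENSRNOG00000019629, chr16:81689590-81706561) was at 555 and 450 TMM-CPM in control, 715 and 712 at D4 and 590 and 586 at D7. Its rise passed the test on D4 (0.51, SE 0.12, adjusted p = 0.0187), where the call was lost without either D4 library (adjusted p = 0.0957 and 0.0959), and missed it on D7 (0.22, SE 0.12, adjusted p = 0.195). Without control a the D7 value of Lamp1 was 0.38 (adjusted p = 0.0430). Lamp2 (ENSRNOG00000000164, chrX:124722628-124766044) was lower in the injured nerve, at 364 and 332 TMM-CPM in control, 283 and 255 at D4 and 257 and 265 at D7. Its log2 fold change was -0.37 (SE 0.10, adjusted p = 0.0281) on D4 and -0.42 (SE 0.10, adjusted p = 0.0221) on D7. The calls of Lamp2 were lost when single libraries were left out, without D4 a, D4 b, D7 a or control a on D4 and without D4 b, D7 a, D7 b or control a on D7, and the log2 fold changes in those fits ran from -0.30 to -0.44. Mcoln1, encoding the calcium channel TRPML1, rose on D7 (0.36, adjusted p = 0.0427) and had 0.20 on D4 (adjusted p = 0.178). Its D7 call was lost whichever of the 6 libraries was left out (adjusted p from 0.0594 to 0.157). Scarb2, the receptor that carries glucocerebrosidase to lysosomes, and Cln3, altered in juvenile Batten disease, passed on neither day.

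Of the 6 proton pump genes of the list, 2 rose on both days and 4 passed the test on neither, where 21.6% of all tested mRNAs rose on D4 and 19.5% on D7. Atp6v1b2, a catalytic-sector B subunit of the kind found in most tissues (ENSRNOG00000011891, chr16:22326529-22350155), was at 43.1 and 44.2 TMM-CPM in control, 127 and 99.1 at D4 and 112 and 107 at D7. All 4 injured libraries were above both controls, and the log2 fold change was 1.37 (SE 0.13, adjusted p = 6.73e-04) on D4 and 1.33 (SE 0.13, adjusted p = 0.00109) on D7. Its partner in the same ring, Atp6v1a, had 0.14 on D4 (adjusted p = 0.405) and 0.17 on D7 (adjusted p = 0.325). Atp6v0d1, the widely expressed d subunit (ENSRNOG00000017235, chr19:37481787-37525762), was at 164 and 134 TMM-CPM in control, 172 and 170 at D4 and 159 and 158 at D7, with log2 fold changes of 0.19 (SE 0.11, adjusted p = 0.210) and 0.09 (SE 0.11, adjusted p = 0.585). Atp6v1h and Atp6ap1 ranged from -0.29 to 0.18 over both days and did not pass.

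Atp6v0d2, the d subunit known from osteoclasts and macrophages (ENSRNOG00000006926, chr5:33843519-33892462), had 0 counts in both control libraries, 14 and 12 at D4 and 25 and 7 at D7. Against a floor of 3 counts in each control library, or 0.168 TMM-CPM, the group mean was at least 3.04-fold higher on D4 and 4.53-fold on D7. The D7 libraries stood at 1.17 and 0.346 TMM-CPM, so the D7 figure rests mainly on library a. Atp6v0d2 was abundant enough to be tested only through the injured libraries, so a fall could not have been seen. The fitted change passed the test on both days (adjusted p = 0.0287 and 0.0221), and with so few counts the D4 call was lost without D4 a, D4 b, control a or control b, and the D7 call without D4 a, D4 b, D7 a, control a or control b. Even in the injured nerve Atp6v0d2 was a small part of the d subunit RNA by length-normalized level, at 0.439 and 0.340 FPKM at D4 and 0.896 and 0.268 at D7, beside 116 and 115 and then 107 and 108 FPKM of Atp6v0d1. The 5 osteoclast markers found in the table summed to 0.979 and 0.181 TMM-CPM in control and to 3.19 to 7.57 in the injured libraries. The 2 that could be tested, Oscar and Mmp9, both rose at least 2-fold on both days. In control they had 10 and 3 counts (Oscar) and 4 and 0 counts (Mmp9). Both were abundant enough to be tested only through the injured libraries, so a fall could not have been seen. Dcstamp, another of the 5, had no count in any library.

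The pump list was widened to 25 subunits and accessory proteins, of which 22 were abundant enough to be tested. On D4 5 of them rose, 2 fell and 15 did not pass, and on D7 4 rose, 2 fell and 16 did not pass. These shares of rising genes lie near those of all tested mRNAs, 21.6% on D4 and 19.5% on D7. Beside Atp6v1b2 and Atp6v0d2, the subunits that rose were Atp6v0c, which forms the proton-carrying ring (log2 fold change 0.78 on D4 and 0.49 on D7), Atp6v0b (0.58 and 0.61) and, on D4, Atp6v0e1 (0.40). Atp6v1g1 (-0.66 and -0.54) and Atp6v0a1 (-0.45 and -0.59) fell on both days. Among the 22, Atp6v1b2 and Atp6v0d2 alone rose at least 2-fold, beside 11.2% of all tested mRNAs on D4 and 9.83% on D7.

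**Figure D4:**
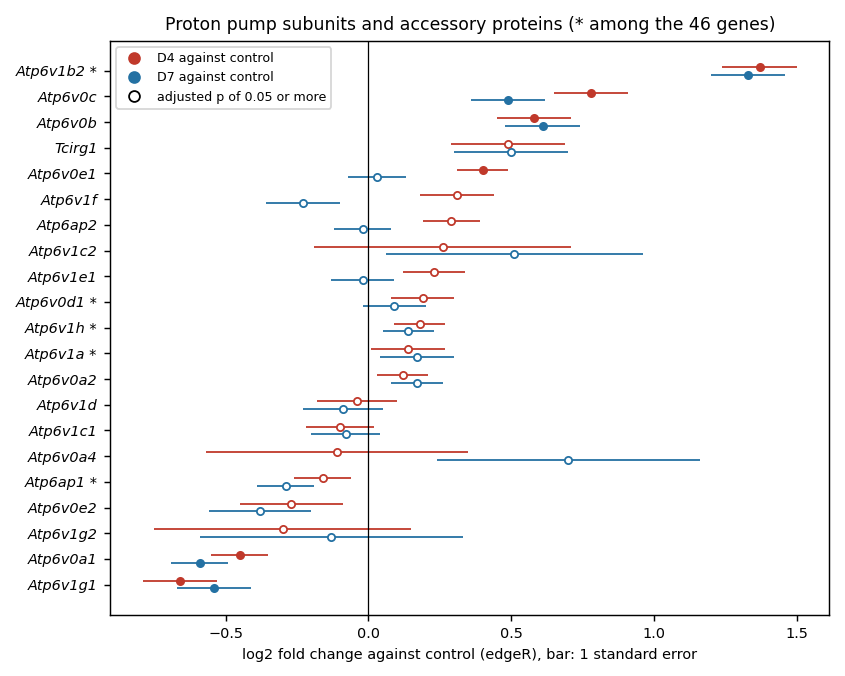
Log2 fold change of 21 of the 22 tested proton pump subunits and accessory proteins on D4 (red) and D7 (blue) against control, ordered by the D4 value, with bars of 1 standard error from the edgeR fit (open circles: adjusted p of 0.05 or more). Atp6v1b2 stands at 1.37 and 1.33, all others shown lie below 1, and Atp6v0d2, without a count in the controls, is left out.

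Of the 2 transcription factors, Tfe3 fell on both days and Tfeb passed the test on neither. Tfe3 (ENSRNOG00000009605, chrX:15575934-15587419) was at 43.6 and 40.9 TMM-CPM in control, 25.9 and 28.1 at D4 and 29.4 and 27.2 at D7. All injured libraries were below both controls, with log2 fold changes of -0.64 (SE 0.10, adjusted p = 0.00435) and -0.58 (SE 0.11, adjusted p = 0.00829). Tfeb (ENSRNOG00000014666, chr9:15207822-15214596) was at 23.8 and 21.8 TMM-CPM in control, 20.2 and 20.3 at D4 and 22.3 and 20.1 at D7. Its log2 fold changes of -0.17 (SE 0.12, adjusted p = 0.273) and -0.10 (SE 0.12, adjusted p = 0.509) did not pass the test and turned to 0.12 and 0.19 without TMM factors. Of the other members of this family, Tfec, at 0.927 and 1.09 TMM-CPM in control and 3.19 to 4.95 in the injured libraries, rose by 2.29 on D4 (SE 0.27, adjusted p = 0.00134) and 1.83 on D7 (SE 0.27, adjusted p = 0.00413). Mitf had -0.22 on D4 (adjusted p = 0.167) and fell by 0.39 on the log2 scale on D7 (adjusted p = 0.0436).

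The size of the falls, and some of their calls, depended on the scaling between libraries. The TMM factors were 0.863 and 0.885 in the control libraries and 1.06 to 1.08 in the injured ones. Without them, the median of all tested mRNAs moved from -0.04 to 0.25 on D4 and from 0.01 to 0.31 on D7, and the median of the 46 genes moved from 0.58 to 0.87 and from 0.50 to 0.79, so the gap between the medians stayed near its size. In that fit Lamp2 had -0.08 on D4 and -0.12 on D7 and Smpd1 had -0.08 on D4, and none of these 3 values passed. Tfe3 passed on D4 (-0.36, adjusted p = 0.0289) and missed the threshold on D7 (-0.28, adjusted p = 0.0616), and Arsa passed on both days (-0.45 and -0.39, adjusted p = 0.0211 and 0.0350).

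The change between the days was tested in the same fit. None of the 46 genes was called between D7 and D4 by edgeR at either threshold, where 2.88% of all tested mRNAs rose from D4 to D7 and 1.79% fell, and 1.68% and 0.494% did so at least 2-fold. At an unadjusted p under 0.05 there were 7 of the 46, namely Ctsa, Ctsl, Ctsz, Fuca1, Naglu, Psap and Grn, and all 7 were lower on D7. DESeq2, run as an alternative, called 5 at an adjusted p under 0.05, namely Ctsa, Ctsz, Naglu, Psap and Grn, and none of them at 2-fold. Grn was nearest to the threshold in edgeR, with a log2 fold change of -0.65 (SE 0.13, adjusted p = 0.0505), followed by Ctsz with -0.66 (SE 0.14, adjusted p = 0.0533). In both genes the D7 libraries lay below both D4 libraries. Over the 46 genes 29 fitted values were lower on D7, and the median was -0.06 beside 0.01 over all tested mRNAs.

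Levels between genes were compared as FPKM, a value deposited by the authors that corrects for gene length and library total and carries no TMM factor. Within each library the median of the 46 genes, 35.8 and 35.1 FPKM in control, 67.7 and 62.6 at D4 and 58.9 and 66.8 at D7, was above the median of all tested mRNAs, 7.44 to 9.54 FPKM. Psap and Ctsb held the first places in every library. In control Psap led with 454 and 432 FPKM and Ctsb followed with 284 and 330. On D4 their order differed between the rats, Ctsb leading in library a (1339 against 1272 FPKM) and Psap in library b (1149 against 923). On D7 Ctsb stood at 909 and 948 FPKM and Psap at 898 and 931. Together Psap and Ctsb made up 25.2% and 27.2% of the summed FPKM of the 46 genes in control, 38.3% and 36.7% on D4 and 34.4% and 35.1% on D7. Lamp1 and Lamp2 came next in control, at 241 and 200 and at 180 and 168 FPKM, and Ctsd stood among the first 4 genes in all 4 injured libraries. At the lower end were Atp6v0d2, below 1 FPKM in every library, and Cln3, at 5.16 to 8.78 FPKM.

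The changes of the genes with and without an E-box overlapped, from -0.17 to 1.22 and from -0.64 to 2.19 on D4. Of the 9 genes with CACGTG in the promoter window, 5 rose on D4 and none of the 9 fell, with a median log2 fold change of 0.51. Of the 27 genes with a window and no CACGTG, 17 rose and 3 fell, with a median of 0.61. On D7 the medians were 0.36 and 0.41, with 5 of 9 and 14 of 27 rising. Among the genes whose promoters are printed above, Ctsd rose at least 2-fold on both days, Galc rose by less, Lamp1, with the most E-boxes, rose on D4, and Atp6v0d1 passed on neither day. Ctss, without an E-box in its window, had the highest fold change of the 36.

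Macrophage markers rose on both days, as did most but not all of the lysosomal genes. All 19 genes of a macrophage list rose at least 2-fold on D4, with a median log2 fold change of 2.21, and on D7 18 rose, 17 of them at least 2-fold, with a median of 1.60. The summed level of the list was 756 and 681 TMM-CPM in control, 3984 and 3183 at D4 and 2809 and 3065 at D7. Gpnmb, itself a glycoprotein of lysosomes, was at 1217 and 396 TMM-CPM in D4 a and D4 b, and without it the sums were 732 and 663, 2767 and 2787, and 1926 and 2261. The list also includes Cd68, a lysosomal membrane protein of macrophages. In the same libraries Ctsd, Arsb, Ctsl and Ctsb were 1.62, 1.56, 1.49 and 1.45 times as high in D4 a as in D4 b. These were the highest such ratios of the 46 genes, whose median was 1.11. Over all genes the median was 0.992 and the 95th percentile 1.56, and 2 of the 46 lay above that percentile. Sox10, a factor that defines Schwann cells, was at 257 to 546 TMM-CPM over the 6 libraries and passed the test on neither day. In its list of 7 genes of Schwann cells and their repair state 5 rose on both days, among them the neurotrophin receptor Ngfr, from 22.9 and 20.9 TMM-CPM in control to 1864 and 1979 at D4 and 1109 and 1051 at D7, and S100b fell (-0.81 and -0.96). Of the 7 neutrophil markers 3 could be tested. Csf3r rose on both days (2.58 and 2.36), Cxcr2 fell on D4 (-1.60), Mpo passed on neither, and Elane and Camp had no count in any library. The lymphocyte list summed to 1.08 and 0.784 TMM-CPM in control, 2.18 and 1.88 at D4 and 6.34 and 5.84 at D7. Of its 6 genes 3 could be tested, Cd3e, Cd3d and Nkg7, and these rose at least 2-fold on D7. They were abundant enough only through the injured libraries, so a fall could not have been seen. Cd79a, Cd79b and Ms4a1 were too low to be tested. The adipocyte list summed to 1315 and 1080 TMM-CPM in control, 309 and 153 at D4 and 7.09 and 438 at D7. None of its 5 genes passed the test on either day, and the D7 rats differed widely. The fibroblast list summed to 55004 and 59709 TMM-CPM in control and 28920 to 37271 in the injured libraries. Col1a1, Col3a1 and Dcn fell on both days, Pdgfra rose, Lum passed on neither day and Col1a2 was listed at 0 in every library. Of the 5 endothelial markers 2 fell on D4 and 4 on D7, beside 22.6% and 18.1% of all tested mRNAs, and none of the 5 rose. The part of these cell types in the changes of the lysosomal genes was not tested.

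**Figure D5:**
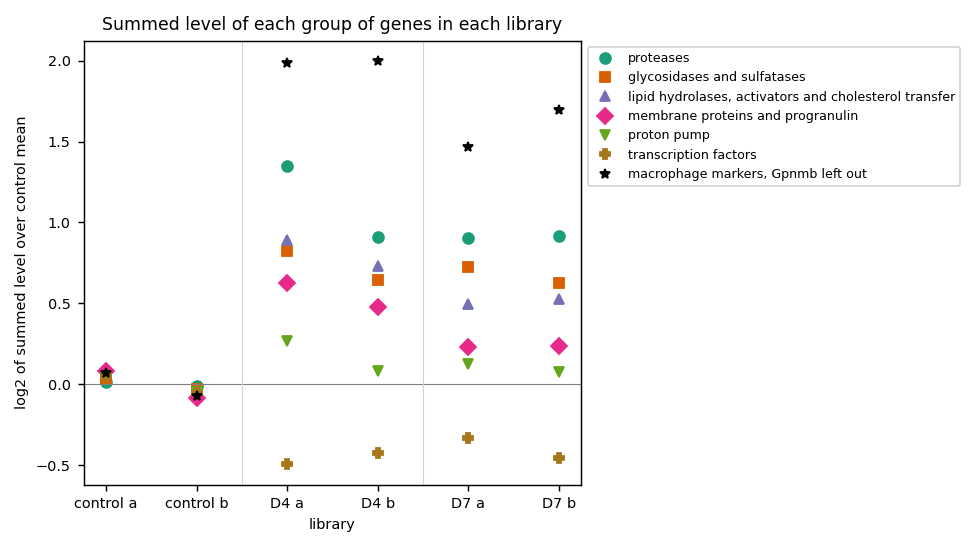
Log2 of the summed TMM-scaled level of each group of lysosomal genes, and of 18 macrophage markers with Gpnmb left out, over the mean of the 2 control libraries, in each of the 6 libraries. The macrophage markers stand highest in all 4 injured libraries, followed by the proteases, while the proton pump lies near 0 and the transcription factors below it.

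Summed within a role, the proteases stood at 2142 and 2111 TMM-CPM in control, 5421 and 3995 at D4 and 3979 and 4014 at D7. The proton pump genes stood at 631 and 591 in control, 734 and 646 at D4 and 667 and 645 at D7. The median log2 fold change on D4 was 0.92 for the proteases, 0.79 for the glycosidases and sulfatases, 0.48 for the lipid genes, 0.20 for the membrane proteins with progranulin and 0.19 for the pump, and on D7 it was 0.81, 0.72, 0.40, 0.12 and 0.16. These medians describe the lists and were not tested against each other.

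A further 84 lysosome-related genes were examined by lists, of which 80 were found under a single entry and 74 were tested. On D4 25 of the 74 rose and 8 fell, with 12 and 3 of them at least 2-fold, beside 21.6% and 22.6% of all tested mRNAs, and 11.2% and 10.7% at 2-fold. On D7 21 rose and 9 fell, with 10 and 3 at least 2-fold, beside 19.5% and 18.1% of all tested mRNAs, and 9.83% and 9.02% at 2-fold. Among the other hydrolases Lipa, encoding the lysosomal acid lipase that frees cholesterol from its esters, was at 22.0 and 28.3 TMM-CPM in control, 217 and 225 at D4 and 94.8 and 131 at D7. It rose by 3.13 on D4 (SE 0.20, adjusted p = 2.06e-04) and 2.16 on D7 (SE 0.19, adjusted p = 7.78e-04), and it fell from D4 to D7 (-0.97, SE 0.18, adjusted p = 0.0451). Ctsw, a cathepsin of cytotoxic lymphocytes, was at 0.361 and 0.181 TMM-CPM in control, 0.657 and 1.07 at D4 and 5.21 and 4.75 at D7, and it rose from D4 to D7 (2.51, SE 0.38, adjusted p = 0.0301). These were the only calls between the days among the 74. Hyal1, encoding a hyaluronidase, fell on both days (-1.38 and -0.99).

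Among the other membrane proteins Cd68 (2.92 on D4 and 2.85 on D7) and Slc11a1, a metal transporter of phagosomes (1.96 and 0.87), rose, and Ctns, the cystine exporter, fell from 78.2 and 64.0 TMM-CPM in control to 21.8 and 22.1 at D4 and 32.2 and 28.7 at D7 (-1.69 and -1.22). Lamp3 was low and fell as well (-1.21 and -2.32). Of the sorting factors Nagpa, which uncovers the mannose 6-phosphate tag, rose (1.03 and 0.99) and the sorting receptor Sort1 fell (-0.95 and -0.68). The cysteine protease inhibitors included Cst7, which rose from 0.258 and 0 TMM-CPM to between 1.14 and 2.11 in the injured libraries, and Cst3, encoding cystatin C, which had -0.60 on D4 (adjusted p = 0.0556) and fell on D7 (-1.06, adjusted p = 0.0106). Of the 9 genes that place lysosomes or dock mTORC1 there, Rragc rose and Rraga fell on D4, Lamtor1 fell on D7, and the others passed on neither day.

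The study also counted lncRNA transcripts, and 32 of them overlapped 26 of the 46 genes, 26 transcripts lying inside the gene. Of the 24 that could be tested, 5 rose and 1 fell at least 2-fold on D4, and 3 rose on D7, against 10.1% and 5.79% of all tested lncRNAs called in either direction. None of the 24 was called by edgeR between the days, where 0.249% of all tested lncRNAs were and 1 of the 24 had an unadjusted p under 0.05, and DESeq2 called none of the 24 either. NONRATT025292.2, inside Lgmn (Rnor_6.0 chr6:126283018-126284279), was counted 25 and 19 times in control, 94 and 125 times on D4 and 75 and 62 times on D7, with a log2 fold change of 2.15 (SE 0.26, adjusted p = 0.00969) on D4 beside 1.07 for Lgmn. NONRATT023019.2, 304 nt inside Atp6v1h (chr5:14356288-14356591), was counted 17 and 6 times in control, 55 and 61 times on D4 and 33 and 28 times on D7, and had 2.18 on D4 (SE 0.46, adjusted p = 0.0419) where Atp6v1h had 0.18. NONRATT012004.2, which covers the ends of Asah1 and Pcm1 (chr16:54040719-54041895), was counted 142 and 148 times in control, 49 and 47 times on D4 and 77 and 79 times on D7, and fell on D4 (-1.75, SE 0.22, adjusted p = 0.00989) where Asah1 had -0.20. The others called on D4 lay inside Ctsb and inside Ctsd, and at the end of Ctsa, where NONRATT019948.2 (chr3:161304564-161317034) begins within the last bases of Ctsa and lies otherwise over Pltp. With any single library left out, between 0 and 3 of the 24 were called on D4, with none called without D4 a or without D4 b, and none of the 24 was called on D7 in any of these fits. The strand of counting was not stated, so RNA of a gene and of a transcript that overlaps it may not have been kept apart.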

How the data were processed

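Sciatic nerve RNA was sequenced after ribosomal RNA removal. The authors mapped the reads to the Ensembl rat genome (Rnor_6.0 per the labels) with HISAT2 2.0.4, assembled transcripts with StringTie 1.3.0 and deposited fragment counts per gene and per lncRNA transcript, which are whole numbers and not normalized. The authors also deposited FPKM values, which were used only to compare genes within a library. Whether the counting used the strand is not given in the sources used here.

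The deposited counts were tested with edgeR 4.0.16 in R 4.3.3 (filterByExpr, TMM factors, quasi-likelihood F test), with the 6 libraries in 1 fit and mRNAs and lncRNAs fitted apart. Benjamini-Hochberg adjustment ran over the 15195 mRNAs or 14077 lncRNAs tested. A call needed an adjusted p under 0.05, with at least 2-fold where stated. The SE of a log2 fold change was taken as its size over the root of the F statistic. Where all control libraries held 0 counts, a fold was taken against 3 counts per library. This floor covers counting error only. The procedure was also run on counts simulated from the mean levels and spreads of these data, with few genes changed. That setting could not test the scaling between libraries. Tables were made with Python 3.11.15, pandas 2.3.3 and numpy 2.4.6, and figures with matplotlib 3.10.9. Promoters came from the RefSeq table of build GRCr8 and were matched by symbol, with no coordinates carried between builds.

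The 46 genes and all other lists were chosen with earlier results of these data known. In each role the members given with all libraries were the 2 called genes with the greatest change on each day, every called gene that fell, and Tfeb, Tfe3, Lamp1, Ctsd, Atp6v0d1 and Atp6v0d2. Of the other lists at most 2 rises and 2 falls were named, apart from genes named beside a result after their values were seen. Groups came from the sample labels. Each library is a different rat and the letters a and b pair no rats. With 2 rats per group, p-values rest on a spread shared across genes and groups. Alternatives were DESeq2 1.42.0, other or no scaling factors, no filter or at least 10 counts in every library, the 2 groups alone, the letter as a block, a test of the 2-fold change itself, no fold threshold and leaving out each library. Set tests were not used. The myelin gene list is not reported here.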

Additional observations from a re-analysis of the deposited data

How the results depend on the processing

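An adjusted p under 0.05 was looked for in every alternative run, left-out libraries included, except the test of the 2-fold change itself. Of the 29 genes that rose on D4, 21 kept it throughout, and of the 26 that rose on D7, 19 did. Of the 4 that fell on D4, Arsa and Tfe3 kept it, and of the 3 on D7, Arsa alone. Calls of at least 2-fold numbered 15 on D4 and 10 on D7. They numbered 7 and 3 when the 2-fold change itself was tested, 33 and 29 with no fold threshold (either direction), 20 and 19 with no TMM factors, and 11 to 15 and 7 to 10 when 1 library was left out. Without TMM factors the median log2 fold change was 0.87 on D4 and 0.79 on D7, and with a library left out it was 0.51 to 0.71 and 0.39 to 0.54. Genes that rose at any fold numbered 21 to 28 on D4 and 19 to 25 on D7 with a library left out. Genes that fell numbered 2 to 4 on D4 and 2 to 4 on D7 with a library left out, 2 and 1 with no TMM factors, and 2 on D4 in the fit of the 2 groups alone. Between D7 and D4 none of the 46 genes was called at 2-fold in any alternative.

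Every gene whose sign turned had passed the test on neither day, apart from Smpd1, which passed on D4. With no TMM factors the values on D4 were Ctsf 0.12, Ctsh 0.13, Asah1 0.09, Scarb2 0.10, Atp6ap1 0.13 and Tfeb 0.12, and on D7 Ctsf 0.28, Ctsh 0.14, Asah1 0.20, Npc1 0.26, Smpd1 0.00, Scarb2 0.12, Atp6ap1 0.01 and Tfeb 0.19. On D7 Ctsf had 0.02 and Npc1 0.00 with at least 10 counts in every library, and 0.06 and 0.03 with upper-quartile factors. Ctsk had -0.01 and Cln3 0.00 on D7 with DESeq2 and with RLE size factors. With a library left out, values on D4 ran from -0.06 to 0.23 for Ctsk, -0.06 to 0.09 for Npc1 and -0.04 to 0.30 for Atp6v1a, and on D7 from -0.13 to 0.12 for Ctsf, -0.30 to 0.00 for Ctsh, -0.02 to 0.02 for Ctsk, -0.26 to 0.09 for Asah1, -0.11 to 0.05 for Npc1, -0.14 to 0.19 for Cln3 and -0.06 to 0.24 for Atp6v0d1.

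The lncRNAs that overlap these genes were called 6 times on D4 and 3 times on D7. The numbers were 1 and 0 when the 2-fold change itself was tested, 3 and 0 with no low-count filter, 5 on D7 with DESeq2, and 0 to 3 and 0 with a library left out. Letters pair no rats. With the letter as a replicate block 15, 10 and 0 genes were called at 2-fold on D4, on D7 and between the days, and 5 and 0 lncRNAs on D4 and D7. The deviations of same-letter libraries correlated at -0.13 between D4 and D7, 0.19 between control and D7 and 0.01 between control and D4. With the D4 letters exchanged, a block chosen after seeing the data, 15, 10 and 0 genes and 3 and 1 lncRNAs were called. Where a left-out library leaves 1 in a group, that library is assumed to vary like the others, and the cause of these differences was not tested.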
